A study of Mus musculus with 10 samples.

Results

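The 10 genes described here are expressed by the endothelial cells that form the blood-brain barrier: Cldn5, Ocln, Tjp1, Slc2a1, Pecam1, Cdh5, Flt1, Kdr, Abcb1a and Mfsd2a. Not all of them are confined to endothelium. All 10 were chosen by name. Every gene probe whose RefSeq accession belongs to one of them was taken, which gave 11 probes among the 56605 gene probes of the array. Tjp1 had a pair of probes and the other 9 genes had 1 probe each. All 11 were well above background on each of the 10 arrays and were tested with 39142 probes in all, which represent 17597 named genes.

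Endothelial cells of brain capillaries are joined by continuous tight junctions and carry out little vesicular transport, so that most solutes cross only through transporters. Claudin 5 and occludin span the membrane at the junction and ZO-1, the product of Tjp1, anchors them to actin, while GLUT1 (Slc2a1) brings in glucose, P-glycoprotein (Abcb1a) pumps out drugs and MFSD2A imports lipids carrying docosahexaenoic acid and restrains transcytosis. In the adult brain this state is known to be kept by Wnt and Norrin signals from neural cells and by contact with pericytes, and VEGF acts on the endothelium through the receptors FLT1 and KDR.

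Hippocampal total RNA was compared between PGC-1αf/f and nPGC-1α mice, with 1 array per mouse and 5 arrays in each group. PGC-1αf/f mice carry a PGC-1α transgene at Rosa26 that is silenced by a floxed PGK-neo-STOP cassette. The nPGC-1α mice, PGC-1αf/f Eno2-Cre, carry the same transgene together with IRES-eGFP, and Cre driven by Eno2, a neuronal promoter, excises the cassette; the controls were littermates without Cre. The mice were on a C57BL/6 background, were labelled male and 12 weeks old, and had no surgery, so the comparison asks whether PGC-1α overexpressed in neurons goes with a different expression of endothelial genes under basal conditions. The recombination is targeted to neurons and not to the endothelium. The labels give the cell type as neuron, but the RNA came from whole hippocampus. The endothelial genes measured on every array show that the tissue included vessels. In such bulk RNA, fewer endothelial cells and less RNA per endothelial cell cannot be told apart.

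The arrays differed in ways that touch every comparison. On average 79.0% ± 2.79 (SD, n = 5) of gene spots were well above background in the PGC-1αf/f group and 71.2% ± 2.57 (SD, n = 5) in the nPGC-1α group, without overlap (two-sided exact permutation p = 0.00794, the smallest that 5 against 5 arrays can give). The noise of the background was 6.32 ± 1.54 signal units in the PGC-1αf/f group and 13.8 ± 4.08 in the nPGC-1α group (SD, n = 5). These values did not overlap either (two-sided exact permutation p = 0.00794). Slide 1 held replicates 1 to 4 of each group, PGC-1αf/f in one row and nPGC-1α in another, and slide 2 held replicate 5 of each. All mice were labelled male, yet Kdm5d, Uty and Ddx3y, which lie on the Y chromosome, were detected on 4 arrays only, namely replicate 1 of the PGC-1αf/f group and replicates 1, 3 and 5 of the nPGC-1α group. For several genes, results are therefore also given within these 4 arrays or within the other 6. More than 10% of spots carried the scanner software's outlier mark on replicate 1 of both groups. Choroid plexus genes were highest on replicate 4 of the controls and replicate 3 of the nPGC-1α group. The tested probe of the targeted gene Ppargc1a had mean levels of 2.20 ± 0.08 and 2.20 ± 0.11 (SD, n = 5; difference 0.00, SE 0.09; limma adjusted p = 0.990). Its other probe, A_55_P2745394, had too few spots without an outlier mark to be tested. Its means were 1.14 ± 0.02 (SD, n = 3) and 1.11 ± 0.04 (SD, n = 2). Whether either probe lies in the part carried by the transgene was not given in the sources used here.

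None of the 10 genes passed the adjusted threshold between the groups. A level is the log2 signal of a probe minus the log2 of the 75th percentile of its array, a difference is nPGC-1α minus PGC-1αf/f on that scale, and both are read only within a probe. With limma and Benjamini-Hochberg adjustment over all probes tested, 0 of 11 member probes passed an adjusted p of 0.05, and the lowest adjusted p was 0.343; over all probes the share was 0.00255%. At an unadjusted p of 0.05, 2 of the 11 passed, the probes of Kdr and Mfsd2a, both higher in nPGC-1α mice, against 11.9% of all probes in either direction, 3.39% in the higher and 8.52% in the lower direction. Among the 34491 tested probes that were, like the members, well above background on all 10 arrays, the shares were 10.5%, 3.93% and 6.57%. The rank-based Mann-Whitney test counted 1 of 11 at an unadjusted p of 0.05 and 0 after adjustment. Of the 10 genes, 6 had a higher mean and 4 a lower mean in nPGC-1α mice. A higher mean was found for 43.3% of all named genes, 40.8% of all probes and 43.7% of the probes above background on all arrays. The median difference was 0.12 over the 10 genes and -0.02 over all 17597 genes. The groups overlapped for all 11 probes, and did not overlap for 2.74% of the 34000 probes with a value on every array, or 2.22% of those above background on all arrays.

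**Figure D1:**
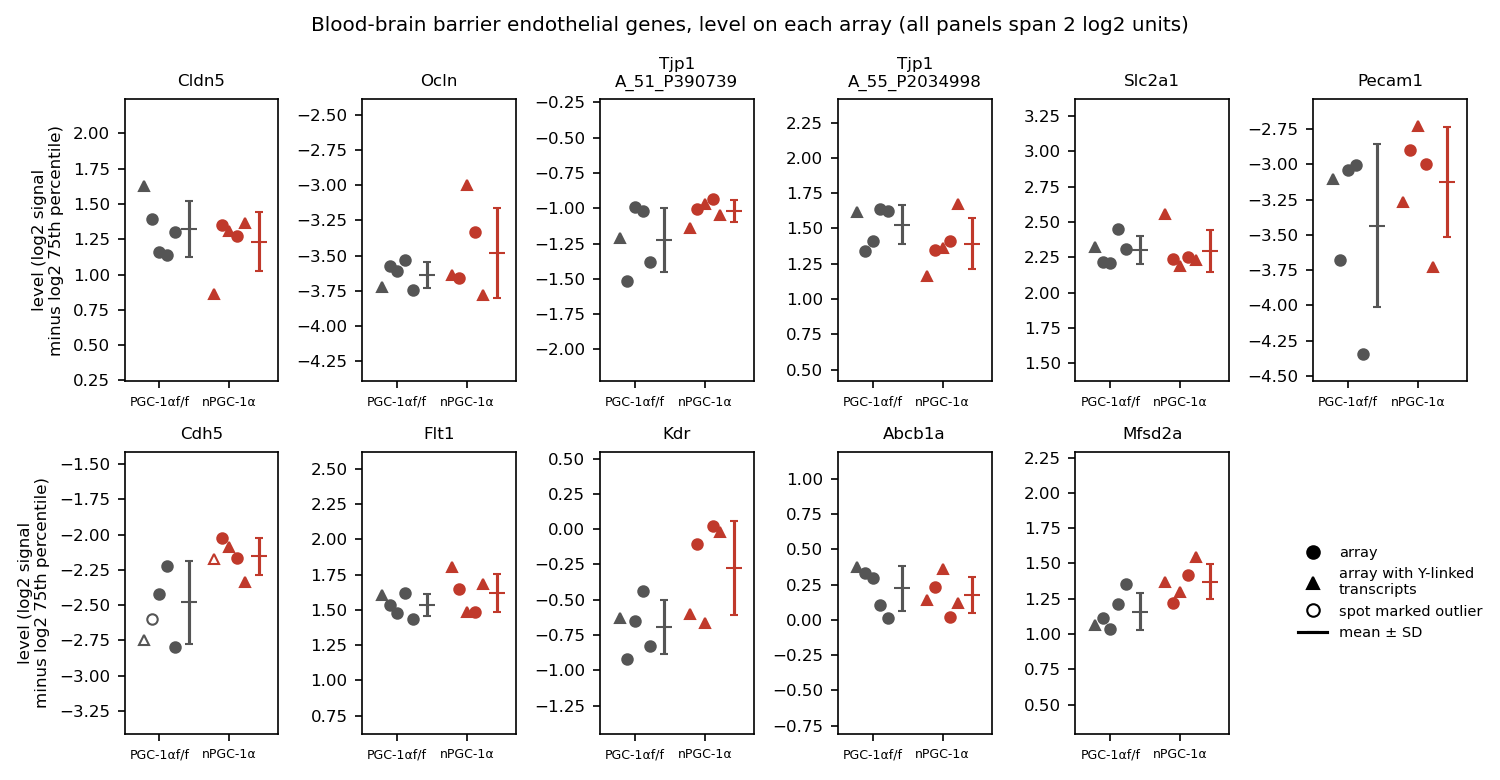
Level of each probe on each array, as the log2 signal minus the log2 75th percentile of the array, with the mean ± SD of the spots not marked as outliers. Grey is PGC-1αf/f and red is nPGC-1α, triangles are the 4 arrays with Y-linked transcripts and open symbols are spots marked as outliers. In every panel the groups overlap, and all 5 nPGC-1α arrays lie above the PGC-1αf/f mean for Cdh5, Kdr, Mfsd2a and the Tjp1 probe A_51_P390739.

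Among the junction genes, Cldn5, the claudin that seals brain endothelium against small solutes, had levels of 1.63, 1.40, 1.16, 1.14 and 1.30 on PGC-1αf/f arrays 1 to 5 and of 0.86, 1.35, 1.31, 1.28 and 1.37 on nPGC-1α arrays 1 to 5. All but 1 of the nPGC-1α arrays lay inside the PGC-1αf/f range, and replicate 1 lay below it. The means were 1.32 ± 0.20 and 1.23 ± 0.21 (SD, n = 5), and the difference was -0.09 (95% interval -0.38 to 0.19; limma adjusted p = 0.800). Without nPGC-1α replicate 1 the difference was 0.00. The interval leaves room for a Cldn5 level between 0.771 and 1.14 times that of the controls.

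Ocln, the gene of the tight junction protein occludin, ranged from -3.74 to -3.53 in PGC-1αf/f mice and from -3.78 to -3.00 in nPGC-1α mice. Its difference of 0.15 (SE 0.14; limma adjusted p = 0.689) was within the spread between mice, and it fell to 0.03 without nPGC-1α replicate 3, the array with the most choroid plexus transcripts. Occludin is also made by epithelial cells such as those of the choroid plexus, and their part in this value was not tested.

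The probes of Tjp1, both designed to the same accession, pointed in opposite directions. The brighter probe, A_55_P2034998, which stands for the gene, had means of 1.53 ± 0.14 and 1.39 ± 0.18 (SD, n = 5) and a difference of -0.13 (SE 0.11; limma adjusted p = 0.650). The other probe, A_51_P390739, had means of -1.23 ± 0.23 and -1.02 ± 0.08 (SD, n = 5), a difference of 0.21 (SE 0.11; limma adjusted p = 0.502), and 5 of 5 nPGC-1α arrays above the PGC-1αf/f mean. Neither differed beyond the spread between mice. Taken within each array, the gap between the probes was 2.83, 2.86, 2.41, 2.66 and 3.01 in PGC-1αf/f mice and 2.30, 2.35, 2.33, 2.35 and 2.72 in nPGC-1α mice, a change of -0.34 (two-sided exact permutation p = 0.0397, a comparison chosen after the values were seen). The gap was examined because the probes were seen to point in opposite directions, so this p is a description, and which probe follows the Tjp1 transcript better was not tested.

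Pecam1 and Cdh5, the genes of the endothelial adhesion proteins PECAM-1 and VE-cadherin, had higher means in nPGC-1α mice without passing the test. Pecam1 had levels of -3.10, -3.68, -3.04, -3.01 and -4.35 in PGC-1αf/f mice and of -3.27, -2.90, -2.73, -3.00 and -3.73 in nPGC-1α mice. The difference of 0.31 (SE 0.28; limma adjusted p = 0.674) rested on the low value of PGC-1αf/f replicate 5, without which it was 0.08. On that array the mean level of the vascular smooth muscle genes was also the lowest of all arrays, at -0.70 relative to the mean of the arrays, as was that of the perivascular fibroblast genes at -0.80. Other vascular genes on that array went both ways. Flt1 (1.44) and Abcb1a (0.01) were at their lowest among the PGC-1αf/f mice, and Mfsd2a (1.36) was at its highest. Cldn5 (1.30) and Slc2a1 (2.31) were at the median of that group, and the mean of the pericyte genes was -0.05. Whether the amount of vessel tissue on that array bears on Pecam1 was not tested. On the 4 arrays with Y-linked transcripts the Pecam1 difference was -0.14 (1 against 3 mice), and on the other 6 it was 0.57 (4 against 2).

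For Cdh5, spots marked as outliers on arrays 1 and 2 of the controls and array 1 of the nPGC-1α group were left out, so that 3 and 4 mice entered. The means were -2.48 ± 0.29 (SD, n = 3) and -2.16 ± 0.13 (SD, n = 4), and the difference was 0.32 (SE 0.16; limma adjusted p = 0.474). With the marked spots kept, PGC-1αf/f levels were -2.75, -2.60, -2.42, -2.22 and -2.80, nPGC-1α levels were -2.17, -2.03, -2.09, -2.17 and -2.34, and the difference was 0.40 (limma unadjusted p = 0.00763, adjusted p = 0.251; two-sided exact permutation p = 0.0159). In that setting 3 of the 11 probes passed an unadjusted p of 0.05 and still 0 passed the adjusted one. The Cdh5 probe also had an unadjusted limma p under 0.05 with the authors' log2 values (0.00486) and with slide as a block (0.0376). As for Pecam1, PGC-1αf/f replicate 5 held the lowest level, and the difference was 0.17 without it.

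Of the VEGF receptors, Kdr had the larger difference. Kdr encodes VEGFR2, the main signalling receptor for VEGF-A on endothelium, and Flt1 encodes VEGFR1, which binds VEGF-A tightly and limits its access to VEGFR2. Kdr levels were -0.63, -0.92, -0.65, -0.44 and -0.83 in PGC-1αf/f mice and -0.60, -0.10, -0.67, 0.02 and -0.02 in nPGC-1α mice. Replicates 2, 4 and 5 of the nPGC-1α group lay above every PGC-1αf/f mouse, and replicates 1 and 3 lay among them. The difference of 0.42 (SE 0.16, 95% interval 0.07 to 0.77), a ratio of 1.34, had an unadjusted limma p of 0.0242 and an adjusted p of 0.343, with a two-sided exact permutation p of 0.0556. It was 0.67 within the 6 arrays without Y-linked transcripts (4 against 2) and 0.20 within the 4 arrays with them (1 against 3), and it was 0.58 without the pair of arrays richest in choroid plexus genes. The unadjusted p rose above 0.05 when replicate 2 or 5 of the controls or replicate 2, 4 or 5 of the nPGC-1α group was left out, at 0.0511 to 0.0633, with differences of 0.35 to 0.39.

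Flt1 ranged from 1.44 to 1.62 in PGC-1αf/f mice and from 1.49 to 1.80 in nPGC-1α mice. Its difference of 0.09 (SE 0.09, 95% interval -0.11 to 0.28; limma adjusted p = 0.724) was within the spread between mice, and 3 nPGC-1α mice lay above the highest PGC-1αf/f mouse. The difference between the changes of Kdr and Flt1 was not tested.

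Among the transporters, Mfsd2a had levels of 1.06, 1.11, 1.04, 1.21 and 1.36 in PGC-1αf/f mice and of 1.37, 1.22, 1.30, 1.41 and 1.55 in nPGC-1α mice. All 5 nPGC-1α mice lay above the PGC-1αf/f mean and 3 lay above the highest PGC-1αf/f mouse, replicate 5. The difference of 0.21 (SE 0.10, 95% interval 0.00 to 0.42), a ratio of 1.16, had an unadjusted limma p of 0.0483 and an adjusted p of 0.416, with a two-sided exact permutation p of 0.0317. It was 0.34 within the arrays with Y-linked transcripts (1 against 3) and 0.14 within those without (4 against 2). Leaving out single arrays kept it between 0.17 and 0.26, and its unadjusted p stayed under 0.05 only without replicate 5 of the controls or replicate 2 of the nPGC-1α group.

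Slc2a1, the glucose carrier GLUT1, had means of 2.30 ± 0.10 and 2.29 ± 0.15 (SD, n = 5), with a difference of -0.01 (95% interval -0.22 to 0.20; limma adjusted p = 0.982). Of the nPGC-1α mice, replicate 1 stood at 2.56 and the other 4 between 2.19 and 2.25. The interval corresponds to between 0.860 and 1.15 times the control level. Abcb1a, which encodes P-glycoprotein, ranged from 0.01 to 0.37 in PGC-1αf/f mice and from 0.02 to 0.36 in nPGC-1α mice, nearly the same span, and its difference was -0.05 (SE 0.10; limma adjusted p = 0.876).

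**Figure D2:**
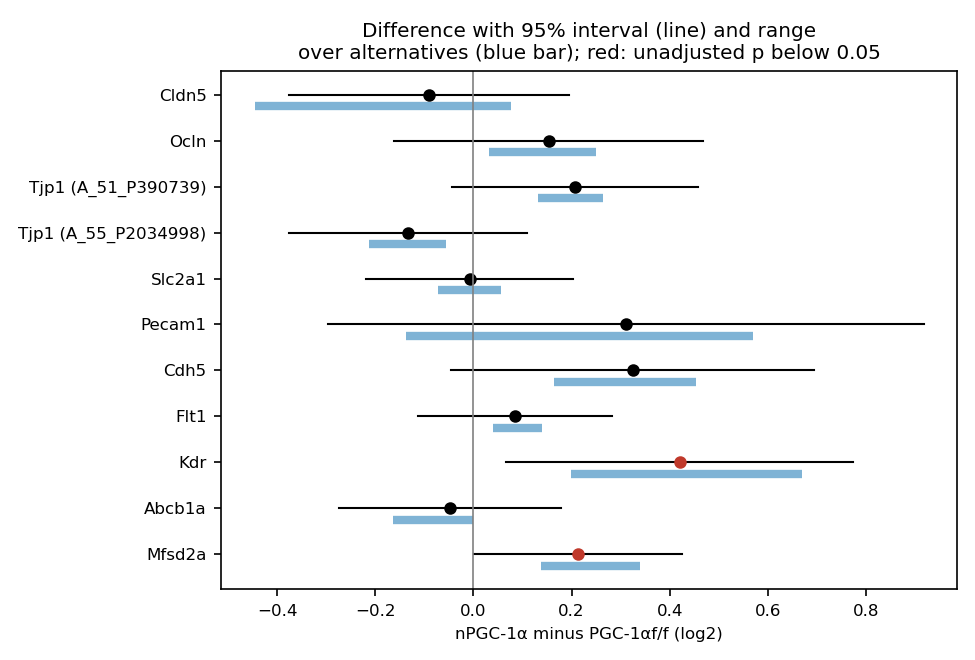
Difference of each probe, nPGC-1α minus PGC-1αf/f on the log2 scale, as a point with its 95% interval from limma, and below it in blue the range over the alternatives to the processing. Kdr and Mfsd2a, in red, had an unadjusted p under 0.05, and no adjusted p was under 0.343.

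The start regions of these genes are shown because PGC-1α acts as a coactivator of DNA-binding factors, among them the oestrogen-related receptors (ERR), while endothelial genes are known to use ETS factors and hypoxia-inducible factors. RefSeq promoters were at hand for 8 of the 10 genes, not for Pecam1 and Cdh5, and the 250 bases before the start were searched on both strands for AAGGTCA (the ERR half-site), ACGTG (the core of the hypoxia response element) and GGAAG (an ETS core). No member held AAGGTCA, which 4.08% of 32851 promoters hold. ACGTG was present in Mfsd2a and Slc2a1 and in 16.6% of all promoters. GGAAG was present in Abcb1a, Flt1, Kdr and Tjp1 and in 64.1% of all promoters. Printed 5′ to 3′ on the strand of the gene, in build GRCm38.p6, are both VEGF receptors and both promoters with ACGTG, with Kdr and Mfsd2a among them as the genes past the unadjusted threshold. The windows are chr5:75978456-75978705 for Kdr, chr5:147726012-147726261 for Flt1 and chr4:122961189-122961438 for Mfsd2a, all on the minus strand, and chr4:119108495-119108744 for Slc2a1 on the plus strand. Capitals mark GGAAG or its reverse complement CTTCC, and ACGTG.
Kdr: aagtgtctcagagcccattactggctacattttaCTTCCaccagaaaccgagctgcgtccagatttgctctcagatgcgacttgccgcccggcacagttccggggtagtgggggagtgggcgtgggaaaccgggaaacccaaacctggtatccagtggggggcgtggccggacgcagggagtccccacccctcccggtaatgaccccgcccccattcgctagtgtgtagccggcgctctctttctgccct
Flt1: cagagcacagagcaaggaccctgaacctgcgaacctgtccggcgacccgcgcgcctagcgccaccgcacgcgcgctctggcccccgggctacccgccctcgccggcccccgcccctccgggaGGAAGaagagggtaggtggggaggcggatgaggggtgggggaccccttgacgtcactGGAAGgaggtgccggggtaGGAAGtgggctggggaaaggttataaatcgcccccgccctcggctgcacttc
Mfsd2a: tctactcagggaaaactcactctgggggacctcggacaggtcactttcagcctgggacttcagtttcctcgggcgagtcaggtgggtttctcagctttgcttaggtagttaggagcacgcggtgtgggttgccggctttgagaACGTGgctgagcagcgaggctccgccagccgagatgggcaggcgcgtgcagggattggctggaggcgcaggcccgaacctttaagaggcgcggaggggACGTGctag
Slc2a1: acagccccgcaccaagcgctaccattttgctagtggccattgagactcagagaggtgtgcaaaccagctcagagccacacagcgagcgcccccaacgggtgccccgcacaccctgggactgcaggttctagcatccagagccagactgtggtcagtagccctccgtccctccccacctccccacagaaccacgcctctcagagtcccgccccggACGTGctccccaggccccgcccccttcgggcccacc
Flt1 held GGAAG at 3 places and Kdr its reverse complement at 1 place, 216 bases before the start. Mfsd2a held ACGTG at 2 places, 107 and 9 bases before the start, and Slc2a1 at 1 place, 36 bases before it. Of the genes with ACGTG, Mfsd2a had a difference of 0.21 and Slc2a1 of -0.01. These matches are letters in a window and not binding sites.

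The 10 genes did not move as one across mice. After the mean of each group was removed, 20 of the 45 pairs of genes had a positive Pearson r over the 10 arrays and the median r was -0.02. These correlations describe 10 arrays that share a scaling, and genes are not independent replicates. Slc2a1 and Flt1 had an r of 0.73, Pecam1 and Cdh5 of 0.71, Tjp1 and Kdr of 0.61 and Tjp1 and Mfsd2a of 0.60. Mfsd2a ran opposite to Abcb1a (r = -0.79) and to Pecam1 (r = -0.77), and Cldn5 opposite to Slc2a1 (r = -0.65). Single arrays carried some of these values. Without nPGC-1α replicate 1, which had the lowest Cldn5 and the highest Slc2a1 and Flt1, the r was -0.14 for Cldn5 with Slc2a1 and 0.44 for Slc2a1 with Flt1. Without nPGC-1α replicate 5, that of Tjp1 with Mfsd2a was 0.37. When each array was left out in turn, the r of Mfsd2a stayed between -0.86 and -0.67 with Abcb1a and between -0.90 and -0.60 with Pecam1, and that of Pecam1 with Cdh5 between 0.58 and 0.93.

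**Figure D3:**
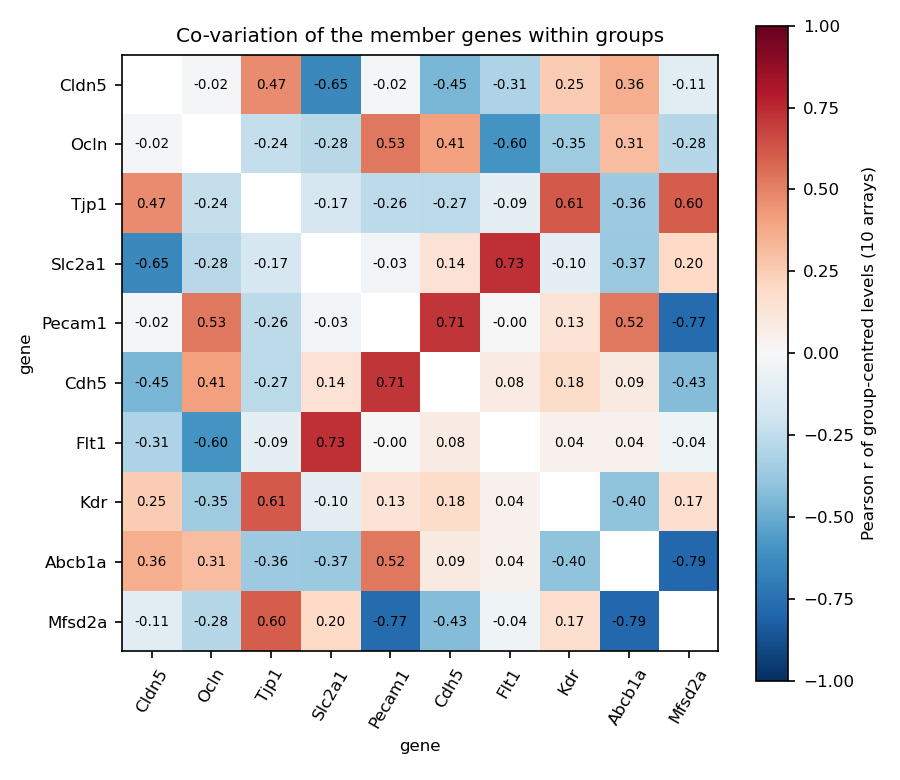
Pearson r between each pair of member genes over 10 arrays, after the mean of each group was subtracted from the levels, with outlier-marked spots kept. Red is positive and blue is negative. Positive and negative values are mixed, from 0.73 for Slc2a1 with Flt1 to -0.79 for Abcb1a with Mfsd2a.

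The mean of the 10 genes had an r of 0.85 with Pecam1, the gene with the widest spread, and of -0.47 with Mfsd2a. Both genes are part of the mean, and a gene with a wide spread weighs more in it. The r of Pecam1 is therefore partly built in. Among 13585 named genes, the 5 others closest to that mean were Cacna2d4 (r = 0.92), Phb (0.92), Taf1a (0.91), 6530411M01Rik (0.91) and Myoc (0.90). None of these 5 is in the lists of vascular genes used here, but with 13585 genes ranked this says little about vascular genes. Of the genes in the lists, those closest to the mean were Lef1 (r = 0.87), Lrp5 (0.82) and Myl9 (0.82). The endothelial gene Tek had an r of 0.75.

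Around the members, 15 further lists covered other endothelial genes, the signals that act on them and the neighbouring cell types, with 179 genes of which 169 were tested. None passed an adjusted p of 0.05, and at an unadjusted p of 0.05, 11 were higher and 3 lower, or 8.28%, where 8.21% of all named genes passed (3.18% higher and 5.03% lower). The 11 that were higher all came from lists of vascular cells and of signals to them. Those lists held most of the 169 genes tested, and all lists were chosen with earlier results of these data known. Values for the genes named from the lists are limma differences with unadjusted p.

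Of the 29 other endothelial identity genes tested, 20 had a higher mean in nPGC-1α mice, with a median difference of 0.06, and 3 transcription factors passed the unadjusted threshold. Sox7 and Sox18 encode SOXF factors that act in the specification of arteries and lymphatic vessels. Sox7 had levels of -3.07 ± 0.16 in PGC-1αf/f and -2.66 ± 0.16 in nPGC-1α mice (SD, n = 5), a difference of 0.41 (unadjusted p = 0.00342, adjusted p = 0.197), with no overlap between the groups. Sox18 differed by 0.52 (unadjusted p = 0.00361, adjusted p = 0.201), and its groups overlapped. Foxf2, a forkhead factor of brain pericytes and endothelium needed for the barrier, differed by 0.40 (4 against 5 mice; unadjusted p = 0.00281, adjusted p = 0.187), with no overlap. Their unadjusted p stayed under 0.05 in all 10 fits that left out 1 array. The 3 genes were named for their low p on these same arrays, so these fits are not independent of that choice. On the arrays with Y-linked transcripts alone (1 against 3) the Sox7 difference was 0.21. By contrast Ly6c1, the brightest probe of the list, which encodes a surface protein of brain endothelium, had a difference of -0.03.

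Among 18 other junction genes, Marveld2, which encodes tricellulin of the contacts where 3 cells meet, had a difference of 0.32 (unadjusted p = 0.0465), and Ctnna1, the gene of alpha-catenin, of -0.06. Among 17 other endothelial transporters, Slc6a6, the taurine transporter, had a difference of 0.45 (unadjusted p = 0.0247), and the brighter probe of Slc3a2, the heavy chain of the large amino acid carrier, of -0.25 (unadjusted p = 0.0480) while its other probe gave 0.19. The medians of these lists were 0.04 and 0.05. The Marveld2 difference was 0.72 on the arrays with Y-linked transcripts and 0.21 on the others, and that of the brighter Slc3a2 probe was -0.41 on the arrays with them and -0.07 with quantile normalisation.

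For the signals to the endothelium, 11 genes of VEGF ligands, co-receptors and their regulators had a median difference of 0.00. Vegfc, the ligand of lymphatic vessels, was lower by the unadjusted threshold of limma (difference -0.29, unadjusted p = 0.0436; its other probe -0.12). Nrp2, a co-receptor, had a difference of -0.17, with other probes at 0.10 and -0.26. Vegfa, named here after its value was seen as the ligand of KDR, had a difference of 0.11 (unadjusted p = 0.412), with other probes at 0.16, 0.18 and -0.13. The Vegfc difference was -0.49 on the arrays with Y-linked transcripts and -0.03 on those without. Of 16 genes of Wnt and Norrin signalling, 8 had a higher mean and the median was -0.01. Apcdd1, a Wnt target of brain endothelium, differed by 0.39 (unadjusted p = 0.0290) and Spock2, a proteoglycan gene of the same list, by 0.39 (unadjusted p = 0.0252), while the co-receptor gene Lrp6 had -0.16 by one probe and 0.16 by the other. Apcdd1 differed by 0.12 on the arrays with Y-linked transcripts, and Spock2 by 0.25 without replicate 2 of the controls.

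Genes of leaky or activated endothelium, which the barrier state normally keeps low, had a median difference of 0.13 over 9 genes. Mmp9, a matrix protease known to degrade junctions and basement membrane, differed by 1.02 (unadjusted p = 0.00567, adjusted p = 0.233) and by 0.94 on its second probe (0.43 on the arrays with Y-linked transcripts, first probe). The first probe was dim, with mean levels of -5.40 in PGC-1αf/f and -4.38 in nPGC-1α mice. It was highest on nPGC-1α replicate 3, where the lowest level well above background was -5.75. Whether background noise bears on this difference was not tested. Plvap, the diaphragm protein of fenestrated vessels, named after its value was seen, had a difference of 0.04. Ackr1, a chemokine receptor of venules, had 0.24. The list mean was highest on PGC-1αf/f replicate 1, at 0.63 relative to the mean of the arrays, and ranged from -0.42 to 0.63 in PGC-1αf/f mice and from -0.29 to 0.49 in nPGC-1α mice.

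**Figure D4:**
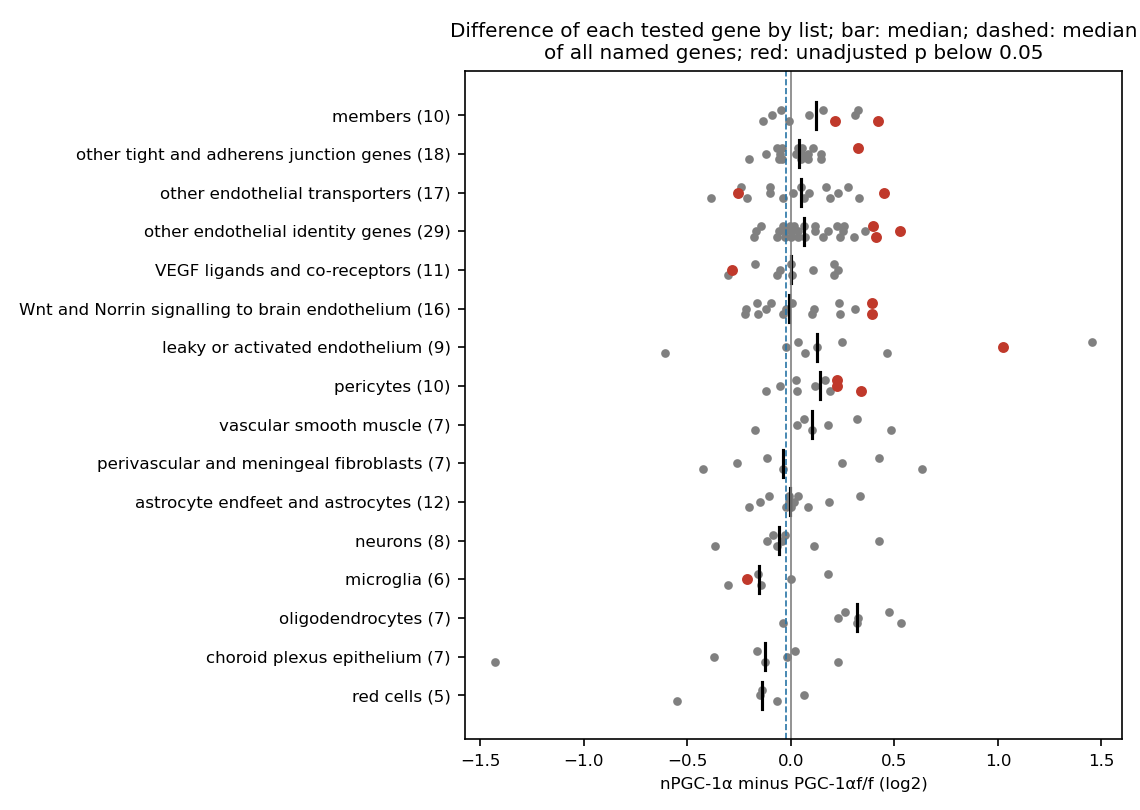
Difference of every tested gene, nPGC-1α minus PGC-1αf/f on the log2 scale, in the 10 member genes and the 15 further lists, with the number of genes tested in parentheses. The black bar is the median of a list, the dashed line the median of all named genes, and red points had an unadjusted limma p under 0.05. Red points to the right lie in lists of vascular cells and their signals, which hold most of the genes tested. None of any list passed the adjusted threshold.

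Pericytes, which sit on the capillary wall and sustain the barrier, had 8 of 10 tested genes with a higher mean and a median difference of 0.14. The potassium channel gene Kcnj8 differed by 0.22 (unadjusted p = 0.0492), its partner Abcc9, which encodes the regulatory subunit SUR2, by 0.34 (unadjusted p = 0.0321) and the mitochondrial protein gene Ndufa4l2 by 0.22 (unadjusted p = 0.0296, no overlap), while Vtn differed by 0.03. On the arrays with Y-linked transcripts alone (1 against 3) the differences were -0.01 for Kcnj8, 0.55 for Abcc9 and 0.08 for Ndufa4l2. Vascular smooth muscle genes had a median of 0.10 over 7 genes, with Acta2 at 0.32 (unadjusted p = 0.302), and perivascular fibroblast genes of -0.04, with Ptgds at -0.04.

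The lists of other cells give the tissue makeup beside these values, and their part in the endothelial results was not tested. Medians were 0.00 for 12 astrocyte genes, with Kcnj10 at -0.02, and -0.06 for 8 neuronal genes, with Snap25 at -0.07 (0.16 by another probe). Microglial genes had a median of -0.15 over 6 genes, with Tmem119 lower by 0.21 on the log2 scale without overlap (unadjusted p = 0.0437) and Itgam at -0.16. Oligodendrocyte genes had a median of 0.32 over 7 genes, none past the unadjusted threshold. Choroid plexus genes (7 tested, Kl at 0.23) and red cell genes (5 tested, Hba-a1 at 0.06 and at -0.15 by another probe) varied far more between mice than between groups, with list means of -1.30 to 2.28 and -1.38 to 1.20 over the arrays.

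**Figure D5:**
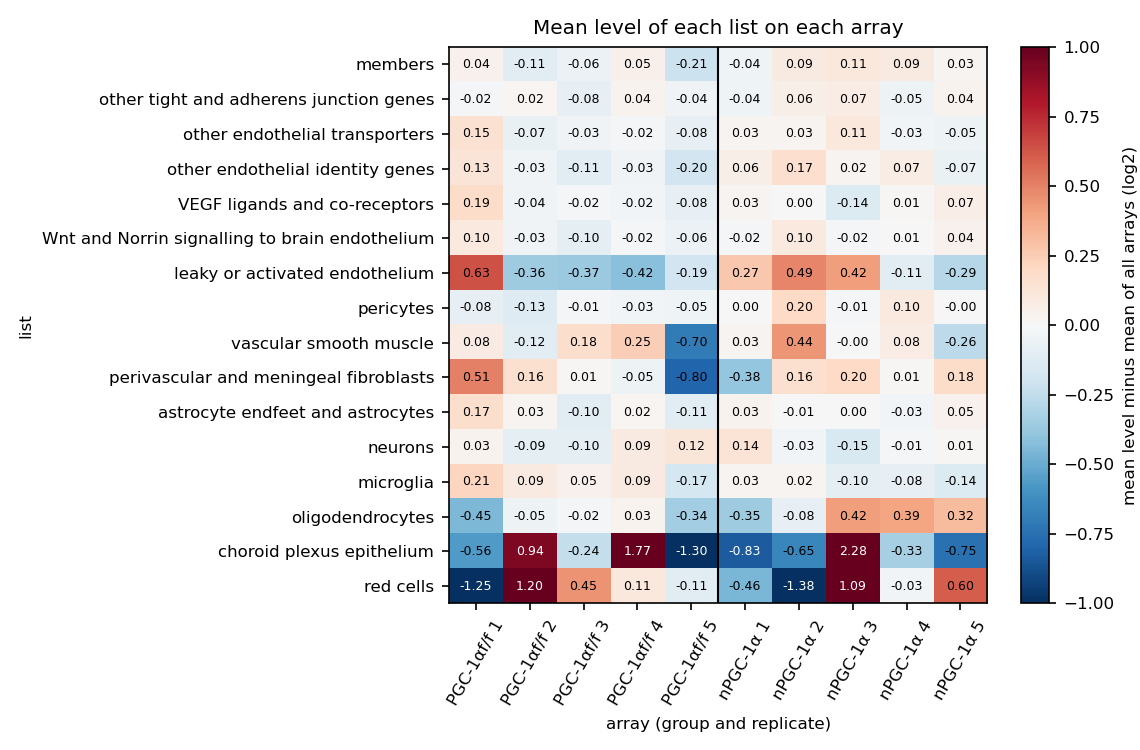
Mean level of each list on each array minus its mean over the arrays, on the log2 scale, with PGC-1αf/f mice left of the line and nPGC-1α mice right of it. Outlier-marked spots were left out of these means. The colours stop at the ends of their scale and the printed values do not; the member genes span -0.21 to 0.11, while choroid plexus genes reach 2.28 on nPGC-1α replicate 3 and red cell genes 1.20 on PGC-1αf/f replicate 2.

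Per array, the mean of the 10 members relative to all arrays was 0.04, -0.11, -0.06, 0.05 and -0.21 in PGC-1αf/f mice and -0.04, 0.09, 0.11, 0.09 and 0.03 in nPGC-1α mice. Outlier-marked spots were left out, so Cdh5 did not enter on arrays 1 and 2 of the PGC-1αf/f group and array 1 of the nPGC-1α group. The groups overlapped, with PGC-1αf/f replicate 5 lowest and nPGC-1α replicate 3 highest.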

How the data were processed

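Total hippocampal RNA was hybridised to 1-colour (Cy3) Agilent mouse arrays, 1 per mouse, and groups and replicate numbers came from the sample labels. Replicates are separate mice. The deposited intensity values are, per the file headers, output of Feature Extraction 11.5.1.1, background-subtracted and not normalised between arrays. The deposited log2 table, which the authors made from these arrays with GeneSpring, served as an alternative.

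Processed intensities were put on a log2 scale, outlier-marked spots were left out, spots of a probe were averaged, and the log2 75th percentile of each array was subtracted. No spot was saturated. Tests covered the 39142 probes with at least 3 values per group that stood well above background in all 5 mice of either group. They were run with lmFit and eBayes of limma 3.58.1 (R 4.3.3), two-sided, without covariates, with Benjamini-Hochberg adjustment across these probes. The test was also run on simulated data, drawn as independent normal values with the same spread in both groups. Such data do not hold the difference in background noise between the groups, so that run does not cover it. Symbols came from a RefSeq table of GRCm38.p6. The arrays were designed on another build, so no probe coordinates are given. A gene with several tested probes was represented by the brightest. Of each further list, genes with an unadjusted p under 0.05 (at most 4) and the brightest were named, besides the 5 genes closest to the mean of the members; 1 gene that this rule names is not reported here. The members and the lists were chosen with earlier results of these data known, so no set test or list-wise adjustment was made.

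Alternatives were other scalings and background corrections (normexp with an offset of 50, applied to median pixel intensities), the authors' values, other filters, a slide or replicate block, other variance models, the Mann-Whitney test named in the methods, the arrays with or without Y-linked transcripts, and leaving out arrays. Precision is limited by the number of mice. Figures and tables were made with Python 3.11.15.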

Additional observations from a re-analysis of the deposited data

Results flagged for a closer look

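In each group of 5 arrays, the highest or lowest value was marked where its gap to the nearest other value made up an unusually large part of the range. This marked 9 of 60 groups of values, and chance marks about 1 in 20 groups. Among the member genes, nPGC-1α replicate 1 had the lowest Cldn5 level, 0.86, with the other 4 mice between 1.28 and 1.37. The same array had the highest Slc2a1 level, 2.56, with the other 4 between 2.19 and 2.25. No other member probe was marked.

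PGC-1αf/f replicate 1 stood above its group in the mean level, relative to all arrays, of the other endothelial transporters (0.15), of the VEGF ligands and co-receptors (0.19) and of the genes of leaky or activated endothelium (0.63). On nPGC-1α replicate 3 the choroid plexus genes had a mean of 2.28, with the other 4 mice of the group between -0.83 and -0.33. The noise of the background was 8.98 signal units on PGC-1αf/f replicate 1, against 5.16 to 6.14 on the others of the group, and 20.9 on nPGC-1α replicate 3, against at most 13.5. Of the spots on PGC-1αf/f replicate 1, 10.5% were marked as outliers, against 0.192% to 3.05% on the others of that group.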

How the results depend on the processing

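Over 28 alternatives, no member probe and no gene of the further lists passed an adjusted p of 0.05. The count of member probes at an unadjusted p of 0.05, which was 2, was 1 with Y-linked transcripts as a covariate, in the arrays without them, with the median of all gene probes subtracted, by the Mann-Whitney test, without a filter on dim probes, on slide 1 alone, without the pair of arrays highest for choroid plexus genes and without those with over 10% outlier spots (chosen after seeing the data), and 0 in the arrays with Y-linked transcripts. It was 3, with Cdh5 added, with the authors' log2 values, with slide as a block and with outlier spots kept. Leaving out each array in turn gave 0 to 2. The count of 14 over the further lists was 9 by the Mann-Whitney test and without a filter on dim probes, 22 with a replicate block, and 9 to 18 when each array was left out. It was 9 without PGC-1αf/f replicate 2 and 9 without nPGC-1α replicate 2. The median difference of the members, 0.12, was 0.00302 in the arrays with Y-linked transcripts (1 against 3 mice) and 0.07 to 0.14 when each array was left out.

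The direction of Cldn5 turned with array weights (0.026), in the arrays without Y-linked transcripts (0.066) and without those with over 10% outlier spots (0.077), and leaving out each array gave -0.14 to 0.0017. That of Slc2a1 turned in the arrays with Y-linked transcripts (0.0030), with the authors' log2 values (0.030), with the median subtracted (0.0072), with normexp and quantile normalisation (0.013), with quantile normalisation (0.033), on slide 1 alone (0.010) and without the choroid-rich arrays (0.056), with -0.073 to 0.029 when each array was left out. Pecam1 (-0.14) and Kcnj8 (-0.0063) turned in the arrays with Y-linked transcripts. Ppargc1a turned with Y-linked transcripts as a covariate (-0.034), in the arrays with them (-0.12), with normexp (-0.0048) and on slide 1 alone (-0.037), with -0.024 to 0.040 when each array was left out. The cause was not tested. Directions of the other members and of the other further-list genes with an unadjusted p under 0.05 held in every alternative that gave a value. The remaining named genes were not recomputed.

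Same-numbered samples of both groups deviated together at r = 0.0776 to 0.356 over 34000 probes, and not every pair was over 0.1, so the numbers were not taken to pair the mice. With the replicate block, 2 member probes had an unadjusted p under 0.05, as without it. The median r over pairs of members was -0.13 to 0.10 when each array was left out.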
